A study of Mus musculus with 98 samples.

Results

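The genes described are 10 muscle fibre genes, chosen by symbol: the myosin heavy chains Myh1, Myh2, Myh4 and Myh7, the myosin light chains Myl2 and Myl3, the troponins Tnni1, Tnnt1 and Tnnc1, and the calcium pump gene Atp2a2. All 10 were found among the 20415 gene rows of the raw count table that holds muscle and 2 brain regions, and all 10 passed the filter on low counts that kept 14197 genes. They were read in 27 muscle libraries of the 98 libraries of the series.

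The study compared FRGN mice, which lack Fah, Rag2 and Il2rg on a non-obese diabetic cross, after their livers were repopulated through the spleen with human hepatocytes (Hu) or with murine hepatocytes (Mu, the control). All were male, about 10 weeks old, took NTBC and SMX/TMP antibiotics in cycles with dextrose in the water, and ate a high energy diet; the Hu mice were kept only where human repopulation exceeded 70%. Both arms therefore lack Fah and the lymphocytes that need Rag2 and Il2rg, and both carry transplanted hepatocytes, so neither is an untreated mouse. Muscle was sampled at zeitgeber times (ZT) 2, 6, 10, 14, 18 and 22, where ZT 0 is lights on. There were 12 Mu libraries, 2 at each time, and 15 Hu libraries, 3 each at ZT 2, 6 and 18 and 2 each at ZT 10, 14 and 22. The labels call the tissue skeletal muscle without naming the muscle, and do not say that each library is a separate animal, so the p-values measure only the spread between these libraries.

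Skeletal muscle is a mixture of fibres that differ in the myosin they build. Slow (type I) fibres carry the heavy chain of Myh7, fast oxidative (IIA) fibres that of Myh2, intermediate (IIX) fibres that of Myh1, and fast glycolytic (IIB) fibres that of Myh4. In slow fibres Myl2 and Myl3 supply the regulatory and essential light chains, Tnnc1, Tnni1 and Tnnt1 the calcium-binding, inhibitory and tropomyosin-binding troponin subunits, and Atp2a2 the SERCA2 pump that returns calcium to the sarcoplasmic reticulum. Most of these slow genes are also heart genes, and muscles of the mouse limb differ widely in how many slow fibres they hold.

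On GRCm38, Myh2 (ENSMUSG00000033196, chr11:67171027-67197517), Myh1 (ENSMUSG00000056328, chr11:67200052-67224575) and Myh4 (ENSMUSG00000057003, chr11:67238029-67260446) follow one another on the plus strand. Myh7 (ENSMUSG00000053093) lies on the minus strand at chr14:54970684-54994626. The troponin C gene Tnnc1 lies on the same chromosome (chr14:31208312-31211729, plus strand), Myl2 (chr5:122100951-122113472, plus) and Atp2a2 (chr5:122453513-122502225, minus) share another, and Myl3 (chr9:110741861-110769798, plus), Tnni1 (chr1:135779434-135810989, plus) and Tnnt1 (chr7:4504570-4516382, minus) lie apart. The heavy chains have long stretches of like sequence, and how the counting treated reads that match several of them is not given in the sources used here, so the split of reads among them is uncertain.

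RefSeq (GRCm38.p6) gave a start for 9 of the 10 genes; Atp2a2 had no entry. The 250 bases before the start of 4 slow genes (Myh7, Tnnc1, Tnnt1, Myl3) and of 2 fast heavy chains (Myh2, Myh4) are shown as examples. Capitals mark matches to 4 motifs on either strand: MCAT (CATTCC), the TATA box (TATAAA), MEF2 and CArG. Capitals on the minus strand of a motif read as its reverse complement, and in Myh4 a TATA box match lies within the MEF2 match. For Tnnt1, Myl3 and Myh4 the RefSeq start is not the outer end of the GENCODE gene model. The same holds for Myl2, Tnni1 and Myh1, whose windows are counted below but not shown. The Myl2 window ended at chr5:122092723, before its gene model, and the Tnni1 window at chr1:135799420, inside its model.
Myh7 (chr14:54994627-54994876, minus strand): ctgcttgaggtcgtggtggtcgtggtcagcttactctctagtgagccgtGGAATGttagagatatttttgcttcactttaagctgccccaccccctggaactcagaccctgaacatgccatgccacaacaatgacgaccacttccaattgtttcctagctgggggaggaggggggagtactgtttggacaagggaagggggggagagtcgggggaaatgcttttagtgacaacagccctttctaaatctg
Tnnc1 (chr14:31208062-31208311, plus strand): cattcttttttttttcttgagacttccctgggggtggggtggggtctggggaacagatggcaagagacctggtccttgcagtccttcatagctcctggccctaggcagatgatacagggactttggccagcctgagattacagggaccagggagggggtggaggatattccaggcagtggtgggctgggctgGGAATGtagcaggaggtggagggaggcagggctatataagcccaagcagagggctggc
Tnnt1 (chr7:4515976-4516225, minus strand): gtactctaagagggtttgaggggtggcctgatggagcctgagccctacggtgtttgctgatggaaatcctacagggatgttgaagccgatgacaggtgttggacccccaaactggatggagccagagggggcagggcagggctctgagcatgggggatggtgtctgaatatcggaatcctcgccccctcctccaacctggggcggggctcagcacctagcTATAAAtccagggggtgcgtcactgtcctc
Myl3 (chr9:110763428-110763677, plus strand): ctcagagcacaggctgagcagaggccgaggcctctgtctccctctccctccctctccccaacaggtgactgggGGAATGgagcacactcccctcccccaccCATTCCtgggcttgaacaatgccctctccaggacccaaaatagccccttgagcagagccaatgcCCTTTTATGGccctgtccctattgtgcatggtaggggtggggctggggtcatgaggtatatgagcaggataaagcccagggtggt
Myh2 (chr11:67170777-67171026, plus strand): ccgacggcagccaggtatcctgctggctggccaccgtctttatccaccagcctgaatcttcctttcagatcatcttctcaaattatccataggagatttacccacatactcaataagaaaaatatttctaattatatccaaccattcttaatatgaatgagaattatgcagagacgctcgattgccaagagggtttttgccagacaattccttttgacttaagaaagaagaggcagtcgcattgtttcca
Myh4 (chr11:67237562-67237811, plus strand): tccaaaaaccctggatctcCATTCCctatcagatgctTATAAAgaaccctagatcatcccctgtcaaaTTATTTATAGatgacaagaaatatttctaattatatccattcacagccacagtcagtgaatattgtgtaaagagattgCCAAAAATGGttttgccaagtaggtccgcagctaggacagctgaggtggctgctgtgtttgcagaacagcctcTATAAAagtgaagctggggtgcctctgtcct

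MCAT matches were in the windows of 5 of the 9 genes, against 12.6% of all 32851 RefSeq windows of this length. In Myh7 the match lay 201 to 196 bases before the start, in Tnnc1 58 to 53 bases before it, and Myl3 had 2. TATA box matches were in 3 genes (12.4% of all windows), and that of Tnnt1 lay 30 to 25 bases before the start. MEF2 matches were in 2 genes, Myh1 and Myh4 (2.92% of all windows), and CArG matches in 2, Myh4 and Myl3 (1.47%). E boxes (CANNTG), left in lower case, were in 7 genes and in 66.2% of all windows. Myh4 held all 5 kinds of match, and Myh2 held none of them. These are matches of letters in the windows alone, with no measurement of binding.

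The Hu muscle libraries held 43.1 to 92.1 M counts and the Mu libraries 50.9 to 79.6 M, and no 2 libraries were identical. Levels below are CPM (a gene's count over the library's total in M counts), with totals scaled by TMM, edgeR's correction for differences in composition. General skeletal muscle genes such as Ckm were high in all libraries (7 markers, summed level 60110 to 157200 CPM). Of 12 heart markers, 6 were too low to test and 6 held counts in each library, among them Actc1, the cardiac actin, with up to 670 CPM in Hu and 117 CPM in Mu muscle. The cardiac troponins Tnni3 and Tnnt2 were highest in Hu ZT 18 replicate 2, at 7.21 and 14.7 CPM against Hu medians of 0.242 and 2.35 CPM. Of those too low to test, Nkx2-5, a heart transcription factor, was at 0 in 23 of the 27 libraries, Myl7, an atrial light chain, in 22 and Nppb, a natriuretic peptide, in 20.

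The fast heavy chain Myh4 dominated each library. Per kilobase of exon, the median level in Hu muscle was 7614 CPM for Myh4, 1183 for Myh1 and 366 for Myh2, and in Mu muscle 5631 for Myh4, 1813 for Myh1 and 1063 for Myh2. The slow genes stood far below, at medians per kilobase from 8.05 CPM (Tnni1) to 23.8 CPM (Myl3) in Hu muscle. In Mu muscle these medians ran from 14.8 CPM for Myh7 to 49.6 CPM for Myl2. Differences between genes of this slow group were not tested. Over the libraries, the level of each of the 7 slow genes covered 10-fold or more.

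Of the summed counts of the 4 heavy chains, Myh4 took the largest share and Myh7 the smallest in 27 of 27 libraries. In Hu muscle the share of Myh4 ran from 65.7% to 93.8% (median 81.5%), and in Mu muscle from 42.4% to 84.5% (median 67.6%). The share of Myh2 ran from 0.505% to 7.69% in Hu muscle (median 4.38%) and from 4.97% to 31.5% in Mu muscle (median 12.4%). The share of Myh1 ran from 4.96% to 29.3% in Hu muscle (median 13.9%) and from 10.3% to 27.5% in Mu muscle (median 20.6%). The 4 heavy chains together made up 4.12% to 6.46% of a library.

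The mixture of fast heavy chains differed from library to library. Mu ZT 22 replicate 1 had both the lowest share of Myh4, 42.4%, and the highest of Myh2, 31.5%, which exceeded that of Myh1 there (25.3%). Hu ZT 18 replicate 2 lay at the other end, with 93.8% Myh4 and 0.505% Myh2. In Hu ZT 14 replicate 2, the Hu library with the lowest share of Myh4 (65.7%), Myh1 took 29.3% and Myh2 4.64%. Myh2 exceeded Myh1 in 2 Mu libraries and in 0 Hu libraries. The share of Myh7 ran from 0.00544% (95% Wilson interval 0.00473% to 0.00627%) in Hu ZT 18 replicate 1 to 1.54% (1.52% to 1.55%) in Mu ZT 6 replicate 1. The intervals cover counting error only and are far narrower than the spread between libraries.

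**Figure D1:**
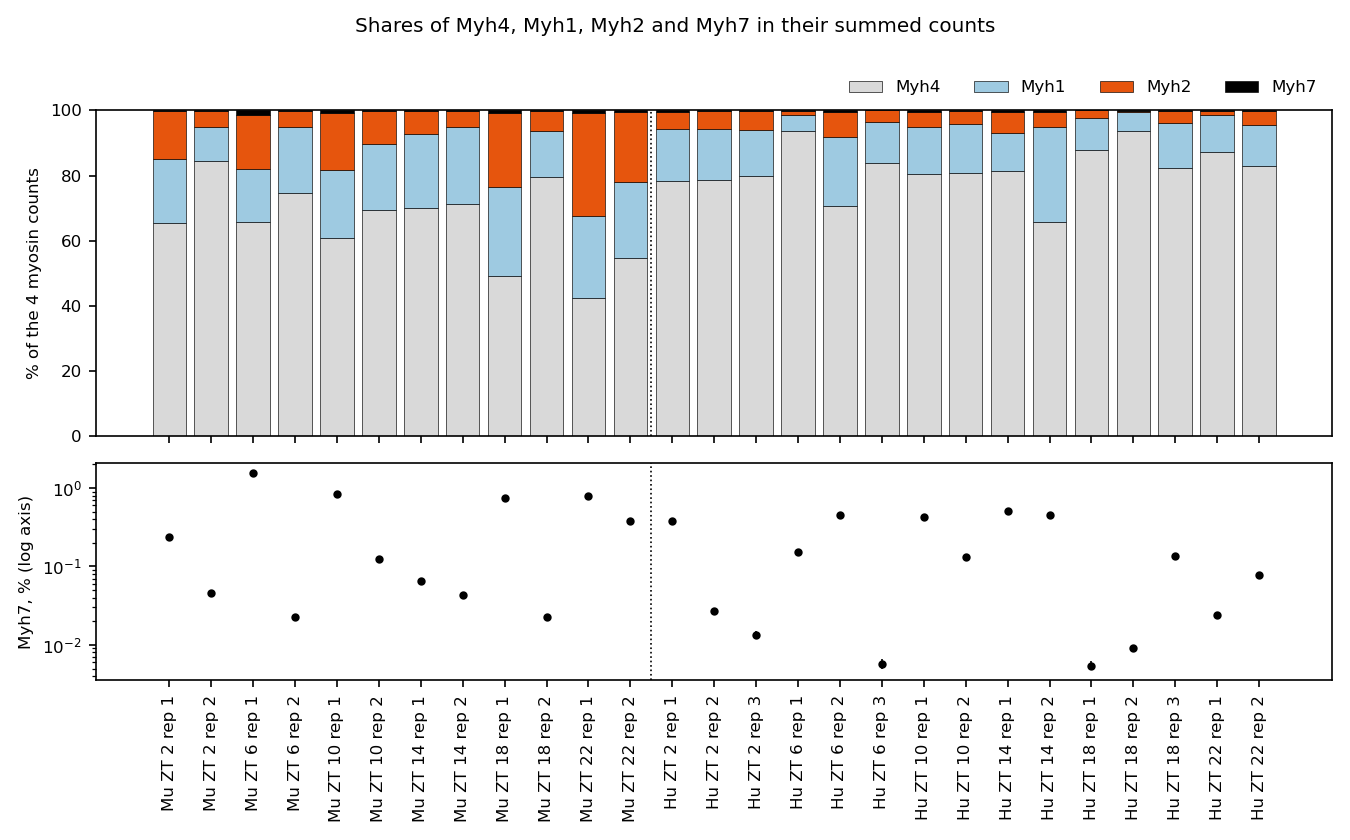
Upper panel, share of Myh4 (grey), Myh1 (blue), Myh2 (orange) and Myh7 (black) in their summed counts, in percent, 1 bar per library, Mu left and Hu right of the dotted line; lower panel, the Myh7 share on a log axis with 95% Wilson intervals. The Myh2 share reached 31.5% in Mu muscle and no more than 7.69% in Hu muscle, while Myh7 stayed at or under 1.54% in each library.

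Myh7, the slow heavy chain, differed more between libraries of one arm and time than between the arms. In Mu muscle, replicates 1 and 2 held 119 and 18.1 CPM at ZT 2, 714 and 13.6 at ZT 6, 481 and 68.7 at ZT 10, 41.6 and 22.4 at ZT 14, 307 and 12.2 at ZT 18, and 340 and 167 at ZT 22. In Hu muscle, replicates 1, 2 and 3 held 229, 16.7 and 5.90 CPM at ZT 2, 88.5, 232 and 3.65 at ZT 6, and 2.67, 5.76 and 70.3 at ZT 18. The Hu replicates 1 and 2 held 276 and 85.4 CPM at ZT 10, 279 and 214 at ZT 14, and 12.5 and 36.3 at ZT 22. The highest library stood 268-fold above the lowest, and the arms overlapped over most of their range. Replicates of one arm and time differed by over 2-fold in 10 of the 12 groups and by over 10-fold in 5.

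Against all genes, the slow genes were among the most variable between replicates. The standard deviation of log2 CPM within arm and time was 2.38 for Myh7, the 19th highest of 14197 genes, where the median gene had 0.236 and the 99th percentile was 1.59. It was 2.34 for the light chain Myl3, 1.88 for the troponin I Tnni1 and 1.85 for the troponin C Tnnc1. Tnnt1 (1.65) and Myl2 (1.62) also lay above the 99th percentile, so 6 of the 10 genes did. Myh2 (0.921) lay just above the 95th percentile of 0.917, and Atp2a2 (0.861), Myh1 (0.563) and Myh4 (0.315) lay below it. With a prior count of 0.5, or without TMM, 6 of the 10 genes rather than 7 lay above the 95th percentile.

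**Figure D2:**
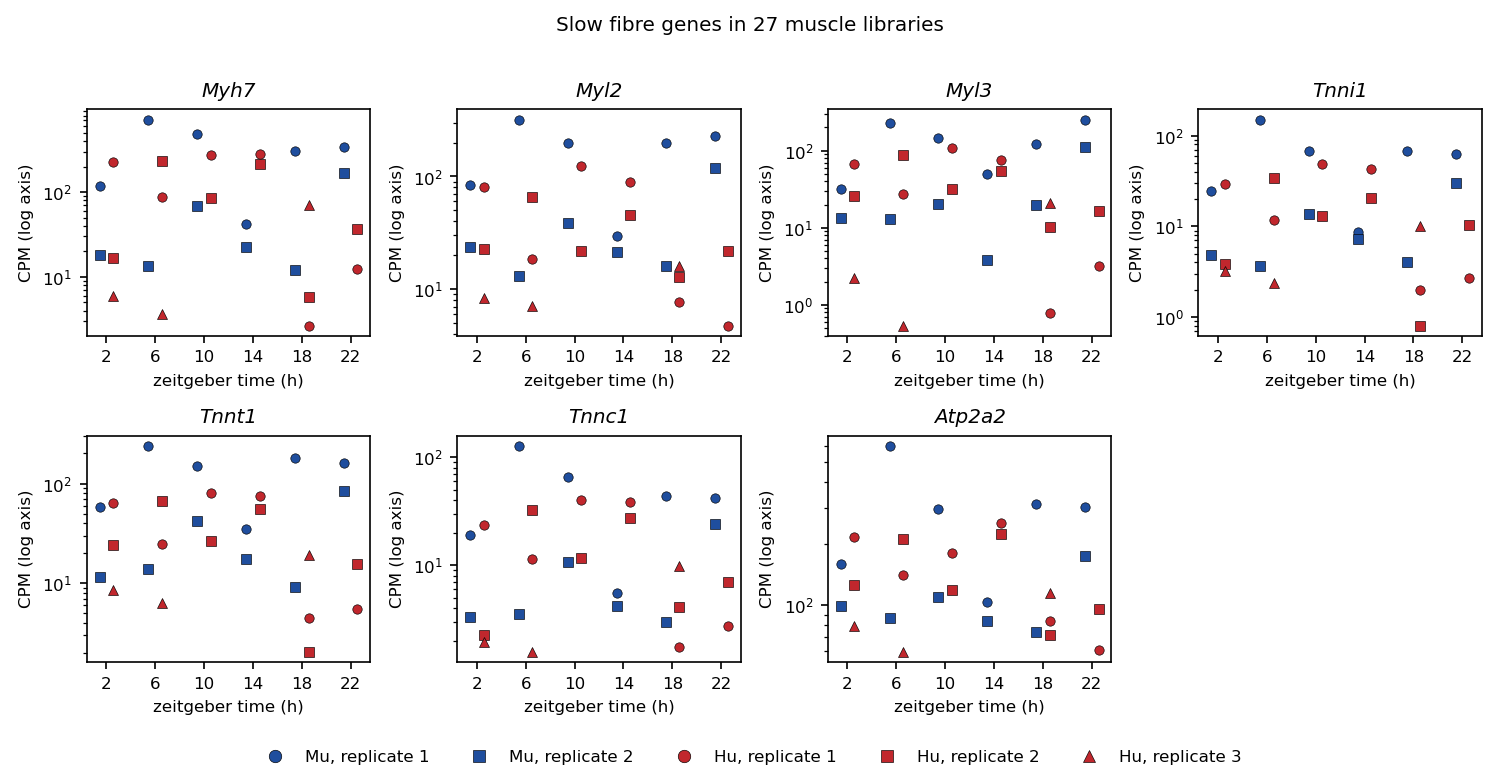
Level of the 7 slow genes in CPM (log axis) by zeitgeber time in hours, 1 point per library, Mu in blue and Hu in red, with the symbol giving the replicate number. Replicates of one time spread over 10-fold or more for Myh7 in 5 of 12 groups, and the Mu replicate 1 point lies above replicate 2 at 6 of 6 times in each of the 7 panels.

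The libraries high in one slow gene were high in the others. Over the 27 libraries, log2 CPM of Tnnc1 correlated with that of Myh7 at r = 0.972, Tnni1 at 0.965, Tnnt1 at 0.943, Myl3 at 0.912, Atp2a2 at 0.911 and Myl2 at 0.907. Each of these 6 had a permutation p of 1e-05, the smallest that 100000 draws can give, for Pearson's r and for Spearman's rho (0.917 for Myl2 to 0.981 for Tnni1), and an adjusted permutation p of 0.0101 for r and 0.00789 for rho over 14196 genes. Among all genes, a positive call at this threshold was made for 0.183%. The 6 ranked 1st, 2nd, 4th, 6th, 7th and 8th of 14196 genes by r. Without the 2 libraries farthest from the median Myh7 level, Hu ZT 6 replicate 3 and Hu ZT 18 replicate 1, r stayed between 0.889 and 0.972. It was 0.882 to 0.966 within Hu muscle, 0.880 to 0.993 within Mu muscle, and 0.896 to 0.974 for deviations from the mean of each arm and time.

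The 3 fast heavy chains did not pass the threshold for correlation with Myh7. Myh2 had r = 0.621 with Myh7 (rho 0.636, permutation p = 0.00041 and 0.00054, adjusted 0.104 and 0.0703). Leaving out Hu ZT 6 replicate 1 or Hu ZT 14 replicate 2 put Myh2 past the threshold. Within Mu muscle r was 0.899, above the 0.880 of the slow light chain Myl3 there, and within Hu muscle 0.475, and the difference was not tested. With the other slow genes, over all libraries, Myh2 had r = 0.813 (Tnnt1), 0.761 (Myl2), 0.736 (Tnni1), 0.640 (Atp2a2), 0.609 (Myl3) and 0.5825 (Tnnc1), given as a description. Myh1 had r = 0.413 (rho 0.387, permutation p = 0.0317 and 0.0460, adjusted 0.366 and 0.361), and Myh4 r = -0.467 (rho -0.450, permutation p = 0.0137 and 0.0194, adjusted 0.282 and 0.263). Among the 6 slow contractile genes the 15 pairwise correlations ran from 0.847 to 0.974. All these values share the library and its scaling.

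**Figure D3:**
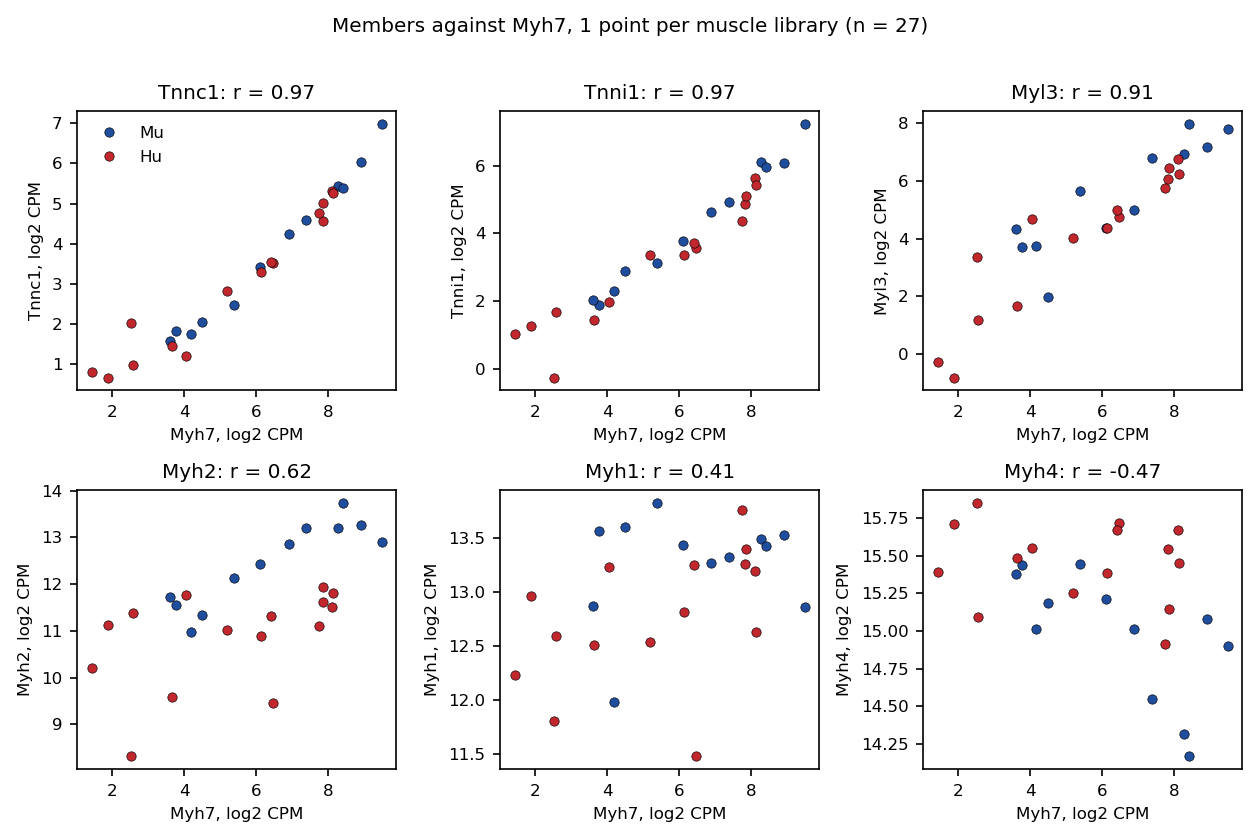
Log2 CPM of 6 genes against log2 CPM of Myh7, 1 point per library (27), Mu in blue and Hu in red, with Pearson's r above each panel. Tnnc1 (r = 0.97), Tnni1 and Myl3 rise with Myh7 across both arms. Myh2 (r = 0.62) rises with it less closely, and Myh1 and Myh4 scatter.

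Outside the 10 genes, the 10 whose levels were most like Myh7 over the 27 libraries were Tpm3 (r = 0.943), Gm34302 (0.933), Myh6 (0.850), Casq2 (0.793), Rspo3 (0.753), Agrp (0.745), Myh3 (0.723), Sln (0.7125), Nnt (0.709) and ENSMUSG00000113525 (0.708). Whether the last 2 share reads was not tested. Tpm3 encodes slow tropomyosin, Myh6 the alpha heavy chain next to Myh7 on the genome, Casq2 the calcium store protein of slow and heart muscle, and Sln sarcolipin, an inhibitor of the SERCA pump. Agrp, Gm34302 and Rspo3 were close to 0 throughout, at no more than 2.53, 2.59 and 2.22 CPM. Among the lowest were Mycbp (-0.691), Ufsp2 (-0.684), Polr3k (-0.684) and Gpd1 (-0.661), of which Ufsp2 and Gpd1 did not pass the adjusted permutation threshold for r (adjusted p = 0.0550 and 0.0752).

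Myh4 was followed most closely by the fast sarcomere genes Mybpc2 (r = 0.948), a myosin-binding protein, and Actn3 (0.937), an actin crosslinker of fast fibres, then by Anapc5 (0.936), Tspan8 (0.900) and Phkb (0.889), a subunit of phosphorylase kinase. Among the 10 genes, 5 had a negative correlation with Myh4 past the threshold for r, against 7.49% of all genes. Myh2 had r = -0.714 (rho -0.593, adjusted permutation p = 0.00139 and 0.0186). Myl2 had r = -0.607 (rho -0.558, adjusted permutation p = 0.00894 and 0.0293), and Tnnt1, Tnni1 and Atp2a2 -0.596 to -0.552, with adjusted permutation p of 0.0125 to 0.0271 for r and 0.0504 to 0.0782 for rho. Within Hu muscle alone these 5 ran from -0.107 to -0.419, and within Mu muscle from -0.663 to -0.755. Without Mu ZT 18 replicate 1 and Mu ZT 22 replicate 1, the 2 farthest from the median Myh4 level, they ran from -0.418 to -0.630.

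Between the arms, Hu muscle held less of the IIA heavy chain Myh2 and more of the IIB heavy chain Myh4. Myh2 stood at 318 to 3943 CPM (median 2223) in Hu muscle and at 2020 to 13670 CPM (median 6465) in Mu muscle, so that 15 of 15 Hu libraries lay below the Mu median and 8 of 12 Mu libraries above the highest Hu library. EdgeR's quasi-likelihood test gave a log2 difference, Hu minus Mu, of -1.58 ± 0.33 (SE, 15 and 12 libraries; 2.99-fold; adjusted p = 0.00134). Myh4 stood at 30950 to 59170 CPM (median 45800) in Hu muscle and at 18400 to 44650 CPM (median 33880) in Mu muscle. The 9 highest Hu libraries lay above each Mu library, and the log2 difference was 0.47 ± 0.13 (1.38-fold; adjusted p = 0.00916). Myh1, which encodes the IIX chain between them, ran from 2852 to 13790 CPM in Hu and from 4042 to 14490 CPM in Mu muscle, with a log2 difference of -0.43 ± 0.19 that did not pass (adjusted p = 0.0975); it passed without Hu ZT 14 replicate 2 (0.0323) or Mu ZT 2 replicate 2 (0.0401).

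**Figure D4:**
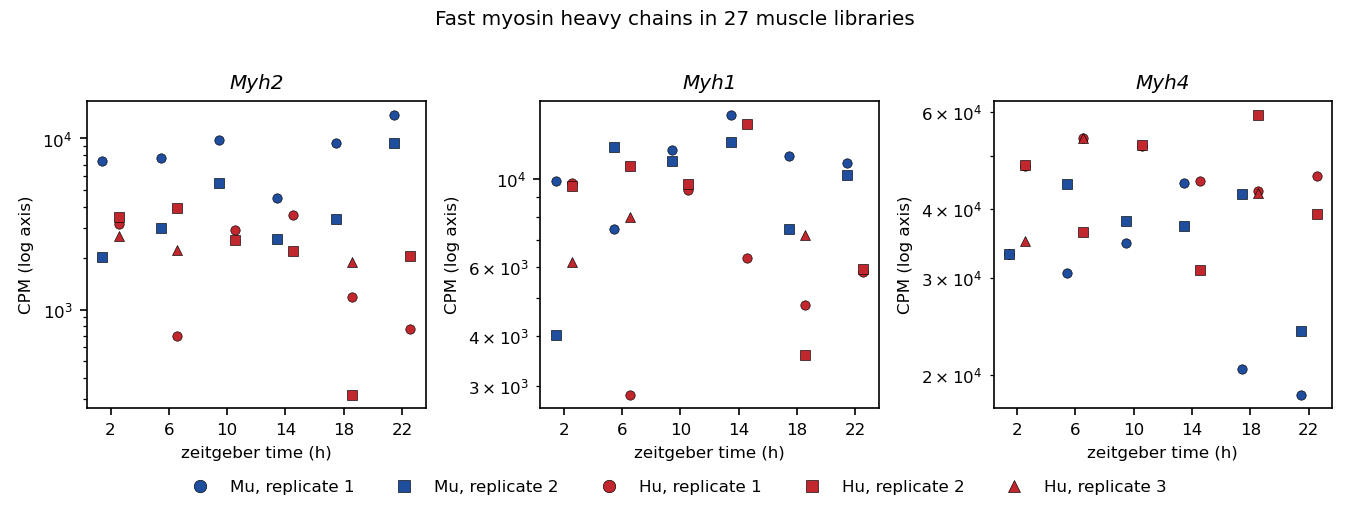
Level of Myh2, Myh1 and Myh4 in CPM (log axes) by zeitgeber time in hours, 1 point per library, Mu in blue and Hu in red, with the symbol giving the replicate number. The Myh2 points of Hu muscle reach 3943 CPM at most and those of Mu muscle 13670 CPM; for Myh4, 9 Hu points lie above the highest Mu point, 44650 CPM.

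Of the slow genes, 2 passed the same test. The ventricular and slow light chain Myl2 ran from 4.75 to 123 CPM (median 21.7) in Hu and from 13.1 to 319 CPM (median 61.7) in Mu muscle, a log2 difference of -1.68 ± 0.55 (adjusted p = 0.0265). The slow troponin T Tnnt1 ran from 2.04 to 80.2 CPM (median 24.3) in Hu and from 9.07 to 237 CPM (median 50.3) in Mu muscle, a log2 difference of -1.56 ± 0.55 (adjusted p = 0.0399). The arms overlapped for both, with 4 Mu libraries above the highest Hu library for Myl2 and 5 for Tnnt1. Both calls were lost when any 1 of Mu ZT 6, ZT 10, ZT 18 or ZT 22 replicate 1 was left out (adjusted p = 0.0540 to 0.0742 for Myl2 and 0.0764 to 0.113 for Tnnt1) and with time as a factor (adjusted p = 0.0703 and 0.0967) or with matched replicate numbers only (adjusted p = 0.0586 and 0.0720). That of Tnnt1 was also lost without Mu ZT 22 replicate 2 or without Hu ZT 2 replicate 3, ZT 6 replicate 1, ZT 10 replicate 2, ZT 18 replicate 1 or 2, or ZT 22 replicate 1 (adjusted p = 0.0515 to 0.0609).

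The other slow genes had negative differences that did not pass: Myh7 -1.09 ± 0.73 (adjusted p = 0.271), Myl3 -1.43 ± 0.66 (0.109), Tnni1 -1.39 ± 0.61 (0.0917), Tnnc1 -1.15 ± 0.60 (0.155) and Atp2a2 -0.56 ± 0.31 (0.187). Tnni1 passed without Hu ZT 2 replicate 1 (adjusted p = 0.0452). In all, 4 of the 10 genes were called, where 26.9% of all genes tested were; 3 were lower in Hu muscle, against 13.3% of all genes, and 1 was higher, against 13.5%. The median log2 difference over the 10 genes was -1.27, beside 0.03 over all 14197. In these bulk samples, fewer fibres of a type and less RNA per fibre cannot be told apart.

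In Mu muscle the library numbered 1 was above the library numbered 2 at 6 of 6 times for each of the 7 slow genes and for Myh2, which was noticed after the values were seen. For Myh7 the 6 Mu libraries numbered 1 held 41.6 to 714 CPM (median 324) and the 6 numbered 2 held 12.2 to 167 CPM (median 20.3). In Hu muscle number 1 was higher for Myh7 at 3 of 6 times. In a model of both arms, the difference between numbers 1 and 2 within Mu muscle had an unadjusted p under 0.05 for 8 of the 10 genes and for 576 of 14115 genes, and 0 genes passed the adjusted threshold in edgeR. What the numbers stand for is not given in the sources used here.

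The arms were also compared within one number. Between the libraries numbered 1 (6 Hu and 6 Mu), the log2 difference was -1.53 ± 0.93 for Myh7, -2.02 ± 0.77 for Myl2, -2.01 ± 0.71 for Tnnt1 and -2.12 ± 0.49 for Myh2, and Myh2 alone of the 10 genes passed (edgeR adjusted p = 0.0233). Between those numbered 2 it was 0.61 ± 0.88 for Myh7, -0.24 ± 0.54 for Myl2, -0.10 ± 0.73 for Tnnt1 and -0.99 ± 0.49 for Myh2, and 0 of the 10 genes passed. Of the 7 slow genes, 5 had a positive value among the libraries numbered 2, from 0.21 ± 0.76 (Tnni1) to 0.61 ± 0.88 (Myh7), and 0 of them passed. Myh4 differed by 0.69 ± 0.20 among those numbered 1 (adjusted p = 0.0519) and by 0.29 ± 0.25 among those numbered 2. The difference of the arm effect between the numbers was tested in one model: the unadjusted p was 0.0162 for Atp2a2, 0.0370 for Myl3, 0.0578 for Tnnc1 and 0.122 for Myh7, the adjusted p was 0.791 to 0.802 for the 10 genes, and 0 of 14115 genes passed the adjusted threshold, with 841 at an unadjusted p under 0.05.

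**Figure D5:**
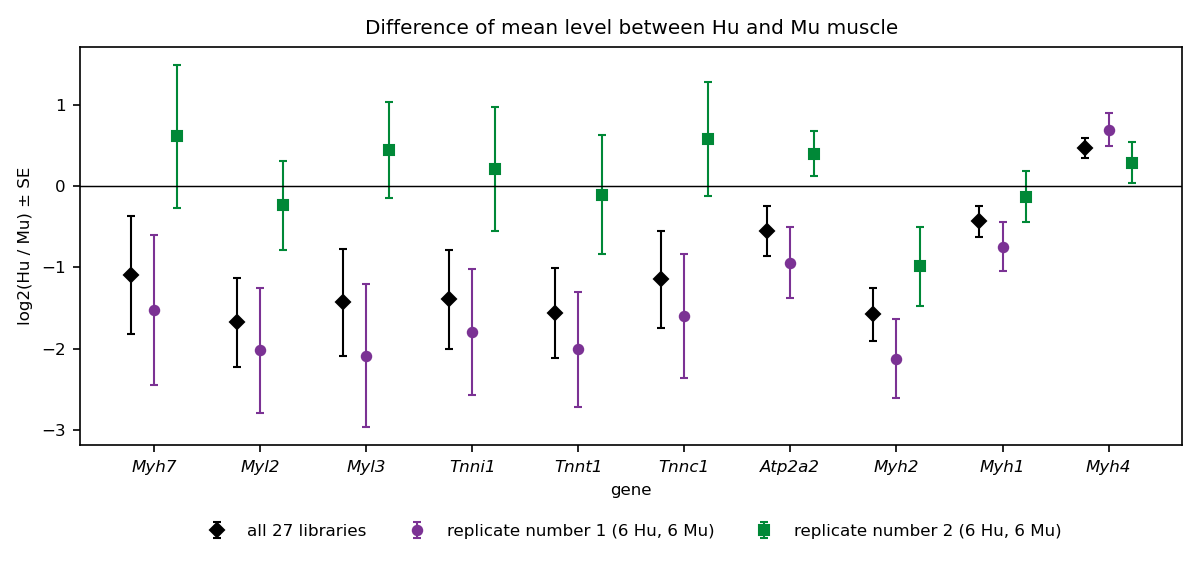
Log2 ratio of Hu to Mu mean level with its standard error for the 10 genes, from all 27 libraries (black), from the libraries numbered 1 (purple) and from those numbered 2 (green). Myh2 lies below 0 and Myh4 above 0 in each of the 3 fits; Myh7 lies at -1.09 over all libraries, at -1.53 among those numbered 1 and at 0.61 among those numbered 2.

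No daily rhythm was called for these genes. Of the 10 genes, 0 were called rhythmic in Mu muscle, where 5.31% of all genes were, and 0 in Hu muscle, where 7.78% were. A different rhythm between the arms was called for 0 of the 10 and for 0.0704% of all genes. At an unadjusted p under 0.05 the counts were also 0 of 10 in each of the 3 edgeR tests, against 3220, 3783 and 1957 of all genes, and DESeq2 called 0 of the 10 as well. The fitted 24 h amplitude of Myh7 in Hu muscle was 1.56 on the log2 scale (edgeR adjusted p = 0.369), beside a standard deviation of 2.38 between replicates of one arm and time. How large a rhythm these libraries could show was not tested.

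Other genes listed as slow fibre genes, set beside the 10, were also lower in Hu muscle where they were called. Of 14 tested, 6 fell in Hu muscle, where 13.3% of all genes did, and 0 rose, where 13.5% did, with a median log2 difference of -0.81 beside 0.03 over all genes; these shares are the background for the list counts that follow. Those with the smallest p were Smtnl1 (-1.44 ± 0.26, adjusted p = 0.000428), a smoothelin-like protein, the oxygen store myoglobin Mb (-0.94 ± 0.22, adjusted p = 0.00363), the Z-disc protein Myoz2 (-1.35 ± 0.34) and the M-band protein Myom3 (-1.43 ± 0.36). Of these, Myoz2 correlated with Myh7 past the threshold (r = 0.699, adjusted permutation p = 0.0101). Smtnl1 (r = 0.535, adjusted permutation p = 0.1885), Mb (0.482, 0.267) and Myom3 (0.563, 0.1505) did not. Mb stood at a median of 2536 CPM in Hu and 4712 CPM in Mu muscle. Tpm3, which followed Myh7 most closely, was not called (-0.62 ± 0.39, adjusted p = 0.236).

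Of 20 other fast fibre genes, 3 rose and 0 fell, with a median of 0.20; the share that rose is near the 13.5% of all genes. Actn3 rose by 0.65 ± 0.13 on the log2 scale (adjusted p = 0.000739), Mybpc2 by 0.57 ± 0.11 and the fast light chain kinase Mylk2 by 0.54 ± 0.11. Actn3 ran from 5415 to 10620 CPM in Hu and from 2669 to 6978 CPM in Mu muscle. Of 18 genes of oxidative metabolism, 14 fell and 0 rose, with a median of -0.42; the fatty acid binding protein Fabp3 fell by 1.42 and the mitochondrial creatine kinase Ckmt2 by 1.06 on the log2 scale. Of these 18, 0 correlated with Myh7 past the adjusted permutation threshold: Fabp3 had r = 0.468 with Myh7 and Ckmt2 0.243.

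Of 29 genes known to regulate fibre type, 10 fell and 2 rose, with a median of -0.08. The nuclear receptors Esrrg (-1.52 ± 0.23, adjusted p = 0.000125) and Esrra (-0.55 ± 0.11) and the coactivator Ppargc1a (-0.76 ± 0.20), which promote oxidative fibres, were among those that fell, as was Six4, a homeobox factor of fast fibres (-0.45 ± 0.08). Vgll3, a cofactor of the TEAD factors that bind MCAT sites, rose by 0.51 ± 0.11, and Tead1 fell (-0.32 ± 0.08). Vgll2, of the same family as Vgll3, fell (-0.70 ± 0.21, edgeR adjusted p = 0.0191), and Tead4 was not called (-0.04 ± 0.18). The other regulator that rose was Mafa (0.58 ± 0.16). Of 8 developmental and other heavy chains tested, Myh10 fell (-0.77 ± 0.24) and the other 7 were not called. Of 9 denervation markers, Gadd45a rose (adjusted p = 0.00459) and 0 fell.

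Markers of other cell types also differed between the arms, and their part in the fibre gene differences was not tested. Of 9 fat cell markers, 7 rose in Hu muscle; their summed level ran from 251 to 3480 CPM (median 1011) in Hu and from 141 to 2498 CPM (median 320) in Mu muscle. Of 5 endothelial markers 3 fell, Kdr by 0.61, Cdh5 by 0.48 and Tek by 0.27 on the log2 scale, and Vwf rose (0.25 ± 0.09); their summed level ran from 248 to 441 CPM in Hu and from 304 to 506 CPM in Mu muscle. Among nerve and Schwann cell markers Pmp2 fell by 1.58 on the log2 scale, and of 5 smooth muscle markers Smtn fell (154 to 352 CPM in Hu, 232 to 404 in Mu). All 5 immune markers rose (summed level 42.7 to 137 CPM in Hu, 24.5 to 81.7 in Mu). Of 7 tendon markers 3 fell (176 to 1181 CPM in Hu, 375 to 1467 in Mu), as did 2 of 5 fibroblast markers (531 to 1930 in Hu, 1064 to 2584 in Mu) and all 3 satellite cell markers (2.36 to 5.14 in Hu, 3.38 to 6.70 in Mu). Of 6 heart markers tested, Actc1 rose and the other 5 were not called. The 4 red blood cell markers tested were not called, but reached a summed 9676 CPM in Hu ZT 6 replicate 1, the library with the lowest Myh1.

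The same rows in the brain libraries of the series give a level outside muscle. In the arcuate nucleus Myh7 held 19.8 to 33.5 CPM without TMM (22 libraries), which 8 of the 27 muscle libraries did not reach, and in the suprachiasmatic nucleus 9.85 to 32.8 CPM (22 libraries). The fast heavy chains stayed under 2 CPM in both regions, and Myl2 at or under 0.421 CPM. Atp2a2, which most tissues express, was higher in the brain regions (626 to 1087 CPM) than in muscle (54.8 to 598 CPM).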

How the data were processed

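RNA of muscle, arcuate and suprachiasmatic nucleus was sequenced from directional libraries, per the labels' protocols; the submitters' processing notes name STAR and the mouse build GRCm38, and the counting program and annotation are not given in the sources used here. The authors deposited raw counts per gene, from which the 27 muscle columns were used, matched to samples by title. The liver libraries were not used here. Gene positions and exon lengths come from GENCODE for GRCm38 and promoter windows from RefSeq.

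Counts were filtered by expression within arm (14197 genes kept), scaled by TMM and fitted with edgeR 4.0.16 in R 4.3.3 (quasi-likelihood test; arm plus a 24 h cosine and sine in each arm). P-values were adjusted by Benjamini-Hochberg over all genes kept, threshold 0.05. Log2 CPM used a prior count of 2. Correlations over libraries were tested by permutation (100000 draws, two-sided) for 14196 genes. On simulated counts for the level comparison of 14197 genes, 97 of 100 genes changed by 1 and 97 of 100 changed by 2 on the log2 scale were recovered, with 4 false calls. The simulated dispersion was 0.1, while the 6 slow contractile genes had a biological coefficient of variation (the square root of the dispersion) of 0.903 to 1.16, so this recovery does not carry over to them.

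Named beside the 10 genes were, in each list, at most the 4 genes with the smallest p for level, the 10 highest and 5 lowest correlations with Myh7 and the 5 highest with Myh4 (1 of these genes is not reported here); Ppargc1a, Tead1 and Tpm3's level were named after their values were seen. The 10 genes and the lists were chosen with earlier results of these data known. Alternatives were DESeq2 1.42.0, other scalings and filters, a prior count of 0.5, time as a factor, the replicate number as a block and each library left out; the fits within one replicate number were added after seeing the data.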

Additional observations from a re-analysis of the deposited data

How the results depend on the processing

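Myh2 and Myh4 kept their direction and call over all 27 fits that left out 1 library and 7 other settings over all times (DESeq2, filter, scalings, replicate block, matched numbers, time as a factor), but not among libraries of one number, where only Myh2 among those numbered 1 was called. Of the 10 genes, 4 differed between the arms in the fit over all libraries, 2 with the replicate block, 2 with matched replicate numbers only, 2 with time as a factor, and 1 and 0 among the libraries numbered 1 and 2 alone; the genes lost with the block were Myl2 (adjusted p = 0.127) and Tnnt1 (adjusted p = 0.200). Among libraries numbered 2 the log2 difference reversed for Myh7 (0.61), Myl3 (0.44), Tnni1 (0.21), Tnnc1 (0.58) and Atp2a2 (0.40). The cause was not tested. Over all genes the level calls were 3817, but 2118 and 1 among the libraries numbered 1 and 2, with fewer samples. Same-numbered libraries of the arms deviated together in 2 of 12 pairs (r over 0.1, range -0.145 to 0.462). At ZT 10, 14 and 22, with 2 libraries per arm, both pairs have the same r by construction. The 12 values are therefore not independent and cannot decide whether the numbers pair the libraries. The numbers were not taken as a pairing.

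Leaving out each library gave 3071 to 4411 genes different in level and 2 to 5 of the 10; Myl2 was lost in 4 of 27 fits and Tnnt1 in 11. It gave 388 to 1110 genes rhythmic in Mu muscle, 602 to 1138 in Hu muscle and 0 to 19 with a different rhythm, and 0 of the 10 in each. DESeq2 called 1494 and 1708 rhythmic genes and 158 with a different rhythm; the last count was 10 in the edgeR fit with TMM, 4 without TMM, 6 with matched numbers and 1 with time as a factor. With Myh7, 6 of 9 genes correlated in the main analysis and 6 to 7 with a library left out, and of all genes 29 and 15 (without Mu ZT 22 replicate 1) to 91 (without Hu ZT 6 replicate 1). The median Myh7 share was 0.132% of 4 heavy chains and 0.164% of Myh7 plus Myh4. All 10 genes held counts in each muscle library.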
